A study of Mus musculus with 8 samples.

Results

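The let-7 family is a set of small regulatory RNAs that share one seed, the stretch near the 5′ end through which a microRNA (miRNA) recognises messenger RNAs. Its 9 members here are mmu-let-7a-5p, mmu-let-7b-5p, mmu-let-7c-5p, mmu-let-7d-5p, mmu-let-7e-5p, mmu-let-7f-5p, mmu-let-7g-5p, mmu-let-7i-5p and mmu-miR-98-5p, written below without the species prefix. The rule takes them by name and uses no measured value; they come from the 1881 mouse miRNAs of the array. All 9 were detected on all 8 arrays and stood among the 316 miRNAs tested, so the filter on dim signals removed none of them.

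Total RNA from mouse kidney, 100 ng a sample, was labelled with Cy3 and hybridised to 8 single-colour Agilent arrays to compare diabetic with control mice. The 4 db/db samples came from males of the strain C57BLKS/J Iar -+Leprdb/+Leprdb, whose leptin receptor gene is mutated and which become obese and diabetic. The 4 control samples came from males of C57BLKS/J Iar -m+/m+, and both groups were 28 weeks old. Sample titles use dbm for the controls where the source label has m/m, which leaves it unsettled whether these mice had a db allele. Nothing in the labels states that the samples are separate animals, and p-values then measure only the spread between samples, which may be technical. The arrays shared 1 slide, with control samples in row 1 and db/db samples in row 2: the effects of row and of genotype cannot be told apart. The kidney was measured whole, so fewer cells of a type and less RNA per cell cannot be told apart in any value given here.

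As background, let-7 miRNAs are abundant in differentiated tissues and scarce in early embryos, and they repress genes of growth and the cell cycle such as Hmga2, Ras genes and the RNA-binding proteins Lin28a and Lin28b. Lin28 proteins in turn bind the loop of let-7 hairpins and block their processing, so family members made from different loci can rise and fall together. In the kidney, let-7 miRNAs are present in tubular and glomerular cells and have been studied as restraints on TGF-beta signalling and fibrosis.

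The mature sequences are shown to make plain how little separates the members on a hybridisation array. They are the RefSeq sequences (GRCm38.p6), 5′ to 3′, with the seed, bases 2 to 8, in capitals.
let-7a-5p: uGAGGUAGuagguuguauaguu
let-7b-5p: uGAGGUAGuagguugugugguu
let-7c-5p: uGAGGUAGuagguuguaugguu
let-7d-5p: aGAGGUAGuagguugcauaguu
let-7e-5p: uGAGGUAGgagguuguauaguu
let-7f-5p: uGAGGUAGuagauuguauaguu
let-7g-5p: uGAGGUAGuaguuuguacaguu
let-7i-5p: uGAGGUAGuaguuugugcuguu
miR-98-5p: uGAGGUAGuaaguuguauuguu

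All 9 are 22 bases long and have the seed GAGGUAG. Counted from 1 at the 5′ end, with the base of let-7a first, let-7c differs from let-7a by A19G, let-7e by U9G and let-7f by G12A. Those are the members 1 base away from let-7a. let-7b carries A17G and A19G, let-7d U1A and U16C, let-7g G12U and U18C, and miR-98 G11A and A19U. let-7i is the farthest from let-7a, with G12U, A17G, U18C and A19U. let-7d is the member whose first base is not uridine.

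The 9 mature sequences lie in 12 hairpins on 7 chromosomes (RefSeq, GRCm38.p6). let-7a, let-7c and let-7f are each made from 2 hairpins, and their signal cannot be divided between the loci. The let-7d sequence lies at chr13:48536078-48536099 on the minus strand, in a cluster with let-7f-1 at chr13:48537889-48537910 and let-7a-1 at chr13:48538239-48538260. let-7c-2 (chr15:85706616-85706637) and let-7b (chr15:85707325-85707346) lie together on the plus strand, within the bounds of the long non-coding RNA gene Lncppara. let-7f-2 (chrX:151912353-151912374) and miR-98 (chrX:151913229-151913250) lie within the bounds of Huwe1, which encodes a ubiquitin ligase.

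The other loci are spread over the genome. let-7a-2 (chr9:41536732-41536753) neighbours Mir100 and Mir125b-1 within the long non-coding RNA gene Mir100hg, let-7c-1 (chr16:77599672-77599693) neighbours Mir99a, and let-7e (chr17:17830366-17830387) neighbours Mir125a within the bounds of Spaca6. let-7g (chr9:106178846-106178867) lies within the bounds of Wdr82, and let-7i lies at chr10:122985698-122985719 on the minus strand.

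The hairpin of let-7d (Mirlet7d, chr13:48536012-48536114, minus strand, 103 bases) is shown because let-7d is the member called in the comparison and both of its arms were tested. Its 5p arm and then its 3p arm are in capitals.
Mirlet7d: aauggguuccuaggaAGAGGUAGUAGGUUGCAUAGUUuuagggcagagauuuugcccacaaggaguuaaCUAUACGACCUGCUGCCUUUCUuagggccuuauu

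Each member was read by 2 probes of 18 to 22 bases that pair with the 3′ end of the miRNA, where most of the differences lie. The 19-base probes of 4 members show the bases that separate them. Capitals in the probes of let-7b, let-7c and let-7d mark the bases that differ from a perfect match to let-7a, and the capital in the probe of let-7a marks the base that differs from a perfect match to let-7d.
let-7a probe: aactatAcaacctactacc
let-7b probe: aacCaCacaacctactacc
let-7c probe: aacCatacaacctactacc
let-7d probe: aactatGcaacctactacc

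Of the 18 probes of the family, 12 would pair with another member with a single mismatch and 6 with no fewer than 2 mismatches. For both let-7d probes the nearest other member is let-7a alone. The difference U1A lies outside the paired stretch, which starts at base 4 or 5, so U16C is the base that separates let-7d from let-7a on this array. How much signal a probe takes from a neighbouring member was not tested, and the levels of different members are not set against each other here, since probes differ in their response.

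The arrays were alike in quality for these miRNAs. Each member probe had 15 spots on each array, and all 2160 member spots were well above background, with 0 saturated and 42 left out as outliers. The coefficient of variation over the spots of a probe had a median of 3.92% and ranged from 1.11% to 8.38%. Between 289 and 358 of the miRNAs were detected on an array, with both ends of that range among the db/db arrays. The 75th percentile over the 269 miRNAs that every array detected lay, on the log2 scale and unscaled, between 8.40 and 8.67 in controls and between 8.57 and 8.73 in db/db. Values below are log2 scaled signals, in which each array was divided by that 75th percentile and brought to a common level.

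The tissue label was checked against miRNAs typical of cell types, where called means a Benjamini-Hochberg adjusted p under 0.05 in limma. All 7 miRNAs taken as kidney tubule markers were detected, with 3 called higher in db/db (miR-204-5p by 1.05, miR-10b-5p by 0.27 and miR-10a-5p by 0.21) and 0 lower. The log2 of their summed signal was 13.7 to 13.8 on control and 13.9 on db/db arrays. Of the leukocyte markers 6 of 8 were called lower in db/db, where 24.4% of all 316 tested miRNAs were called higher and 17.4% lower. Their median change was -0.99, and the log2 of their summed signal was 9.39 to 9.74 in control against 8.26 to 8.71 in db/db. The hepatocyte marker, miR-122-5p, was detected on each of the 4 db/db arrays but on 0 control arrays. The log2 of the summed signal of 2 erythroid markers, miR-451a and miR-144-3p, varied from 9.46 to 11.6 in control and from 9.33 to 11.8 in db/db. The endothelial and the smooth muscle lists each had 0 of 2 called. What part these differences have in the let-7 values was not tested.

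The summed signal of the let-7 family differed between the groups by less than the spread between arrays. The log2 of the summed signal of the 9 members was 15.33 ± 0.04 in control kidneys (SD, n = 4) and 15.34 ± 0.04 in those of db/db mice (SD, n = 4), a difference of 0.013, and the groups overlapped. The brightest probes weigh most in that sum. The median change over the members was 0.016 on the log2 scale, beside -0.024 over all 316 tested miRNAs, with 5 positive and 4 negative values. The family median moved with the scaling, to 0.14 with no scaling and 0.20 with scaling to the labelling spike-ins, and it turned negative, at -0.0098, when arrays were scaled to the median and at -0.030 in the authors' deposited table.

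let-7d-5p rose in db/db kidneys. Its log2 signal was 11.43, 11.53, 11.47 and 11.49 on the 4 control arrays and 11.61, 11.65, 11.63 and 11.71 on the 4 db/db arrays. All 4 db/db arrays lay above all 4 control arrays. The mean went from 11.48 ± 0.04 to 11.65 ± 0.05 (SD, n = 4 each), a change of 0.17 with a standard error of 0.041 and an adjusted p of 0.0105 (limma with Benjamini-Hochberg adjustment over the 316 tested miRNAs). On a linear scale this is 1.13-fold, with a 95% interval from 1.06 to 1.21.

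let-7d was 1 of 9 members called at an adjusted p under 0.05, or 11.1%, and none was called lower. Over all tested miRNAs 41.8% were called, 24.4% higher and 17.4% lower in db/db. let-7d was also the single member whose groups did not overlap, against 41.5% of all tested miRNAs (24.7% higher and 16.8% lower). The change of let-7d was positive in each of the 30 alternative ways of processing, between 0.019 and 0.36. Its call held in 24 of them, with adjusted p from 0.0015 to 0.94 (limma with Benjamini-Hochberg adjustment). Most of these alternatives kept the reported way of scaling, so the count is no measure of robustness. Where the scaling itself was changed, the call held with no scaling and with the labelling spike-ins, which moved all 9 members upward. It was lost with quantile normalization, normexp, the median, the percentile over all miRNAs and in the authors' table. Without db/db replicate 2, with the scaling and the filter recomputed, the change of let-7d was 0.12 with adjusted p = 0.0889. With the scaling and filter kept as for 8 arrays it was 0.17 with adjusted p = 0.0259 (limma with Benjamini-Hochberg adjustment for both).

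**Figure D1:**
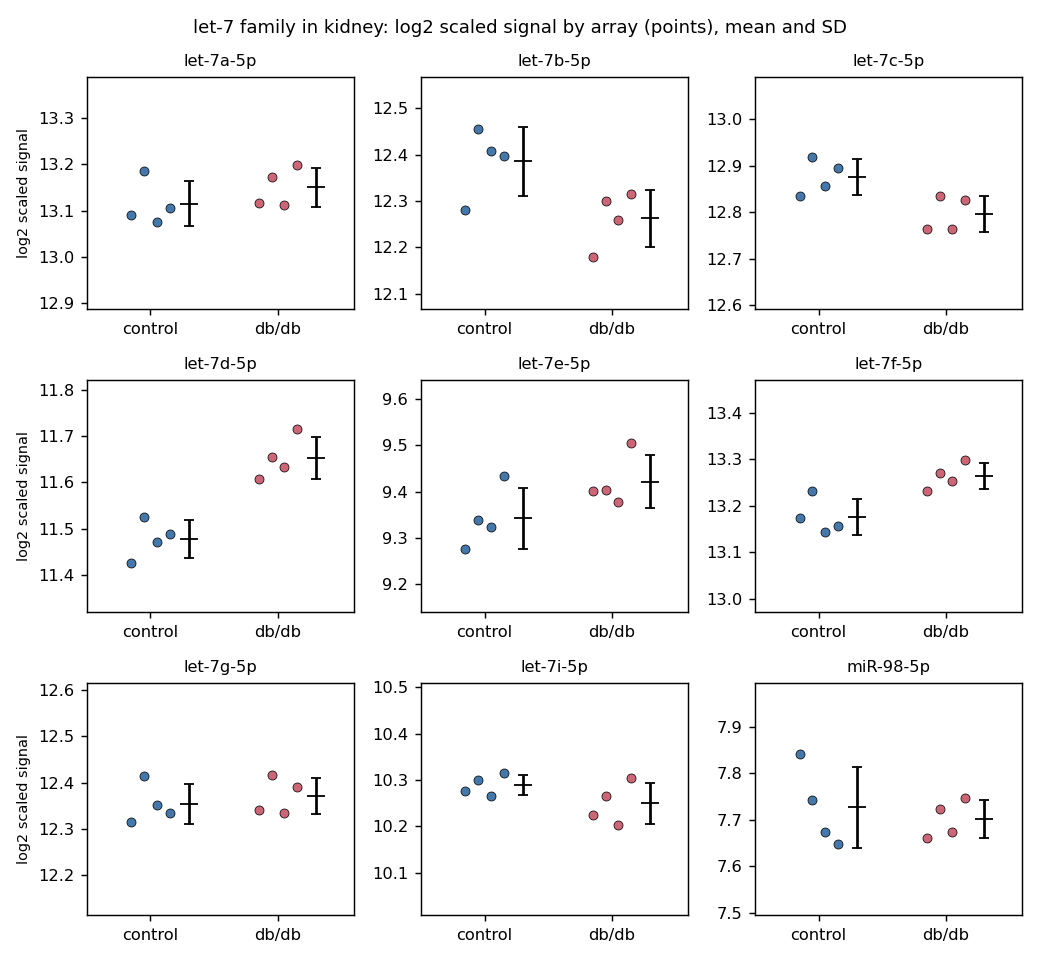
Log2 scaled signal of each of the 9 members on each array, with 4 control arrays on the left and 4 db/db arrays on the right of each panel; points are arrays in replicate order, and bars are the mean and SD. Every panel spans the same height in log2 units around its own level; the panel of let-7d-5p is the one in which the groups do not overlap.

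The 2 members that share the chromosome 13 cluster with let-7d did not pass the test. let-7f-5p was 13.17, 13.23, 13.14 and 13.16 on the control arrays and 13.23, 13.27, 13.25 and 13.30 on the db/db arrays. Control replicate 2 lay level with the lowest db/db array, and the other controls lay below all db/db arrays. The change of let-7f was 0.087 with a standard error of 0.038 and a 95% interval from -0.0011 to 0.17, with adjusted p = 0.101 (limma with Benjamini-Hochberg adjustment).

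let-7a-5p, the reference sequence of the family, was 13.09, 13.18, 13.08 and 13.11 in control and 13.12, 13.17, 13.11 and 13.20 in db/db samples. The groups of let-7a overlapped over most of their range. Its change was 0.035 with a standard error of 0.042 and a 95% interval from -0.062 to 0.13 (adjusted p = 0.509, limma with Benjamini-Hochberg adjustment). Both let-7a and let-7f have a further hairpin on another chromosome, so these values are not those of the cluster alone.

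The pair of chromosome 15 members had lower means in db/db kidneys, and neither passed the test. let-7b-5p was 12.28, 12.46, 12.41 and 12.40 in control and 12.18, 12.30, 12.26 and 12.31 in db/db samples. Control replicate 1 lay within the db/db range and the other 3 controls above it. The change of let-7b was -0.12 with a standard error of 0.053 and a 95% interval from -0.24 to -0.0011, with adjusted p = 0.0950 (limma with Benjamini-Hochberg adjustment).

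Without control replicate 1 the change of let-7b was -0.16 with adjusted p = 0.0306 (limma with Benjamini-Hochberg adjustment). Without db/db replicate 2 it was -0.19 with adjusted p = 0.0471 where the scaling and filter were recomputed, and -0.13 with adjusted p = 0.115, not called, where they were kept (limma with Benjamini-Hochberg adjustment). It was called lower in 7 of the 30 alternatives, with adjusted p between 0.0152 and 0.963 over all of them (limma with Benjamini-Hochberg adjustment), and the value turned positive with no scaling (0.0044) and with the labelling spike-ins (0.058).

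let-7c-5p was 12.83, 12.92, 12.86 and 12.89 in control and 12.76, 12.83, 12.76 and 12.83 in db/db samples. The highest db/db array lay level with the lowest control array. The change of let-7c was -0.079 with a standard error of 0.040 and a 95% interval from -0.17 to 0.013, with adjusted p = 0.150 (limma with Benjamini-Hochberg adjustment). It was called lower in 1 of 30 alternatives, the one without db/db replicate 2 and with scaling and filter recomputed (-0.15, adjusted p = 0.0343). With scaling and filter kept, the value without that array was -0.091 with adjusted p = 0.140 (limma with Benjamini-Hochberg adjustment), while no scaling gave 0.048 and the labelling spike-ins 0.10.

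miR-98-5p was the member with the largest spread among the controls. Its log2 signal was 7.84, 7.74, 7.67 and 7.65 in control and 7.66, 7.72, 7.67 and 7.75 in db/db samples. The highest value belonged to control replicate 1, and the db/db range lay inside the control range. The change of miR-98 was -0.025 with a 95% interval from -0.15 to 0.096 (adjusted p = 0.706, limma with Benjamini-Hochberg adjustment), and it was 0.013 without control replicate 1. It was called lower with quantile normalization, at -0.12 with adjusted p = 0.0435 (limma with Benjamini-Hochberg adjustment), and turned positive with no scaling (0.10) and with the spike-ins (0.16).

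The remaining members overlapped between the groups and did not pass. let-7e-5p lay between 9.28 and 9.43 in control and between 9.38 and 9.50 in db/db samples, with a change of 0.079 and a 95% interval from -0.035 to 0.19. let-7g-5p lay between 12.31 and 12.42 in control and between 12.33 and 12.42 in db/db samples, with a change of 0.016 and an interval from -0.078 to 0.11. let-7i-5p lay between 10.27 and 10.31 in control and between 10.20 and 10.30 in db/db samples, with a change of -0.040 and an interval from -0.13 to 0.049. Over all 9 members the intervals reached from -0.24 to 0.27, so a change beyond that range lies outside the interval of every member. These intervals hold for the reported scaling and leave out any uncertainty in it. The change of let-7d was 0.30 with no scaling and 0.36 with the labelling spike-ins, both beyond that range.

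**Figure D2:**
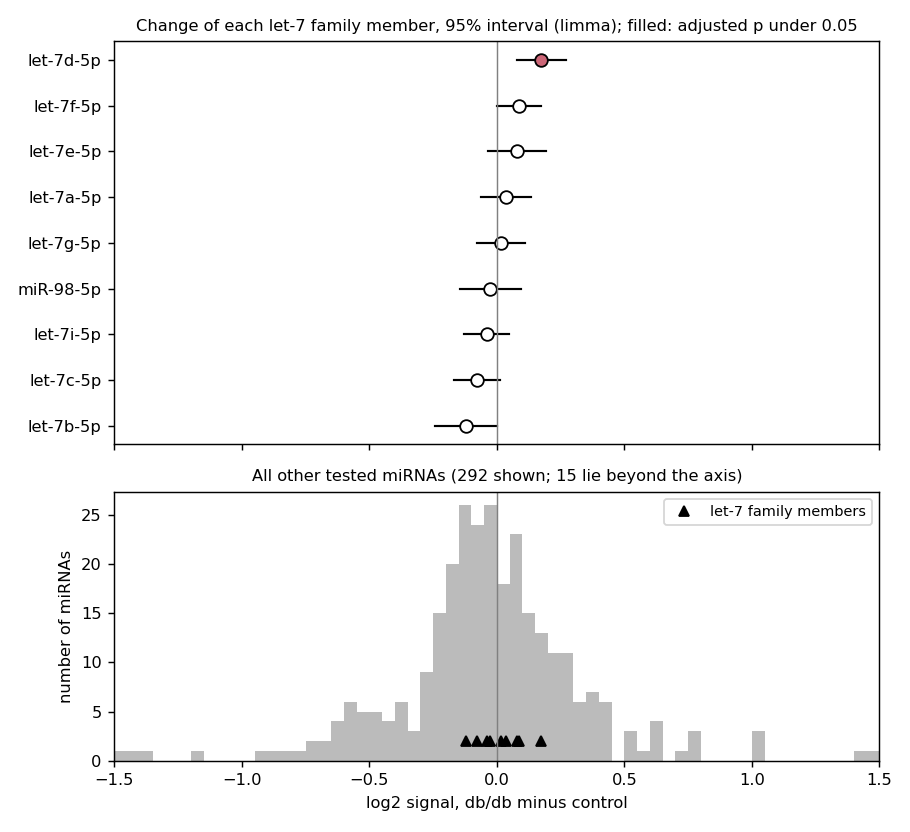
Top: change of each member in log2 units, db/db minus control, with its 95% interval from limma; the filled point, let-7d-5p at 0.17, is the one with an adjusted p under 0.05. Bottom: the number of other tested miRNAs by change, with the 9 members as triangles between -0.12 and 0.17; of the 307 others, 292 are drawn and 15 lie beyond the axis.

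The members changed by small amounts and were measured with a small spread. Their median absolute change was 0.079 on the log2 scale, beside 0.17 over all tested miRNAs. Their median residual SD was 0.043, beside 0.11 over all tested miRNAs and 0.064 over the 81 other miRNAs at least as bright as the dimmest member. Of those 81, 35 were called, or 43.2%, with a median absolute change of 0.14. That cut in brightness was set by miR-98, with a mean log2 signal of 7.73 in control. The other members were brighter, from 9.34 in control for let-7e upward, so the 81 miRNAs were not matched to them in brightness. These values describe the list, with no test.

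Within each group the members deviated together. On control replicate 2, 8 of 9 members lay above the mean of their group, and on db/db replicates 2 and 4 the counts were 8 and 9 of 9. On control replicates 1 and 3 it was 1 member each, and on db/db replicates 1 and 3 it was 0. Control replicate 4 was in between, with 5. The mean deviation of the family ran from -0.038 on db/db replicate 1 to 0.048 on db/db replicate 4. No such count over other miRNAs is given here, so the pattern is not shown to be particular to the family. A factor common to an array enters every member, so each member was also set against the mean of the other 8 on the same array.

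Relative to the rest of the family, let-7d stood higher and let-7b and let-7c lower in db/db kidneys. let-7d minus the mean of the other members was 0.041, 0.077, 0.083 and 0.078 in control and 0.24, 0.23, 0.26 and 0.27 in db/db samples. The gap between the groups was wider than the range within either of them. The difference of the means was 0.18, close to the change of let-7d itself.

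For let-7b, the same measure was 1.00, 1.12, 1.14 and 1.10 in control and 0.88, 0.96, 0.97 and 0.94 in db/db samples, a difference of -0.15. Here control replicate 1 also lay above all db/db arrays. For let-7c it was 1.62, 1.64, 1.64 and 1.66 in control and 1.54, 1.56, 1.53 and 1.52 in db/db samples, a difference of -0.10, with no overlap.

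Relative to the others, let-7f lay 0.082 higher and let-7i 0.060 lower in db/db, both without overlap. The groups overlapped for let-7a, let-7e, let-7g and miR-98, with differences of 0.024, 0.073, 0.0026 and -0.044. In all, 5 of 9 members did not overlap on this relative measure. Of all 316 tested miRNAs, each set against the let-7 mean, 44.6% did not overlap, 24.4% higher and 20.3% lower, so the members' count was close to the background. Such a difference shows unequal change within an array, and does not show which member moved.

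A scaling factor per array cancels in the relative measure, and the filters and fits leave it as it is. Leaving out an array cannot make separate groups overlap. Most of the settings could therefore not undo a separation, and the counts that follow are no measure of robustness. The groups of let-7b and let-7f did not overlap in any of the 31 settings, the reported one included. Those of let-7c, let-7d and let-7i did not overlap in 29, and overlapped after quantile normalization and after normexp background correction followed by quantile normalization. In those settings the relative value of let-7d was 0.043 and 0.030, that of let-7c -0.0093 and -0.022, and that of let-7i -0.011 and -0.013. By signal, let-7d was at rank 20 or 21 of 1881 on every array, and quantile normalization sets a rank to the same value on all arrays.

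**Figure D3:**
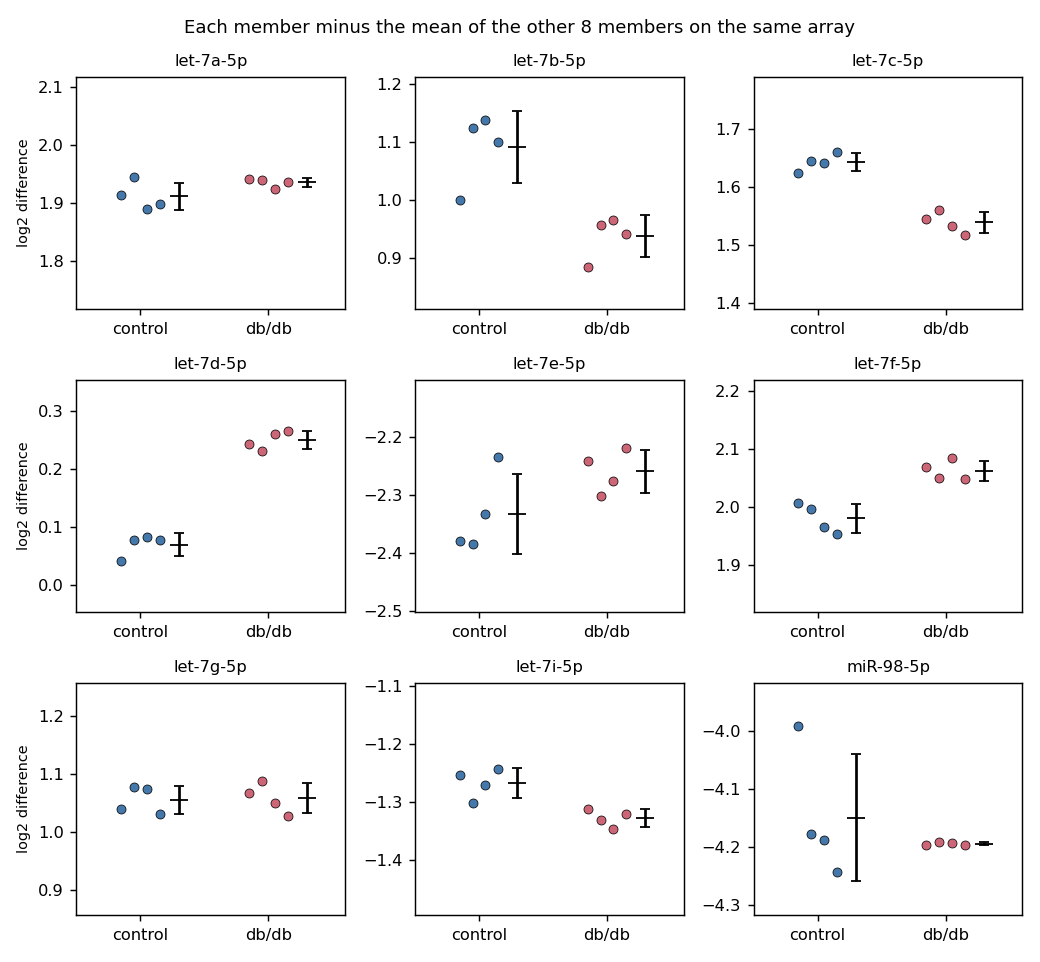
Log2 signal of each member minus the mean log2 signal of the other 8 members on the same array, with 4 control arrays on the left and 4 db/db arrays on the right; points are arrays, bars the mean and SD, and every panel spans the same height in log2 units around its own level. Groups do not overlap for let-7b, let-7c, let-7d, let-7f and let-7i.

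The 2 probes of a member were compared as separate readings of it on the same arrays. Those of let-7d changed by 0.15 and 0.19, and both had groups that did not overlap. The probes of let-7b changed by -0.15 and -0.11, with overlap, and those of let-7c by -0.064 and -0.11, the second without overlap. Of the 18 probes, these 3 had groups that did not overlap. The 2 probes of a member had opposite signs for 1 member, let-7g, at -0.024 and 0.040, and that gap of 0.064 was the widest of the family.

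**Figure D4:**
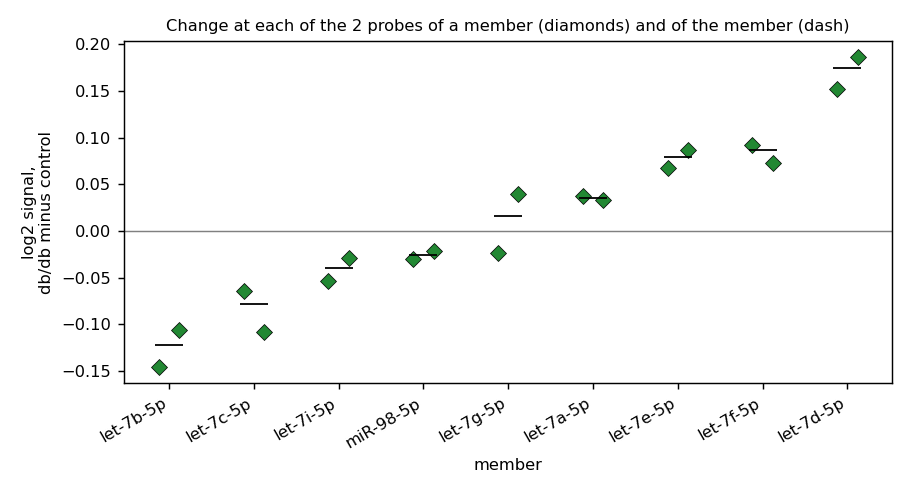
Change in log2 signal, db/db minus control, at each of the 2 probes of a member (diamonds) and of the member as reported (dash), with members ordered by change. The probes of let-7d-5p lie at 0.15 and 0.19, and the 2 probes of each member lie on the same side of 0 except for let-7g-5p.

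Members close in sequence were compared for how close they were in change. Over the 4 pairs that differ by 1 base the median difference between the changes was 0.048, and over the 10 pairs that differ by 2 bases it was 0.066. It was 0.097 over 11 pairs with 3 bases and 0.13 over 9 pairs with 4 bases, and the single pairs with 5 and 6 bases lay at 0.12 and 0.21. The ranges overlapped widely, from 0.0078 to 0.17 at 2 bases and from 0.014 to 0.30 at 4 bases. The pairs share members, and probes of close members could share signal, so this is a description. let-7a and let-7d, 2 bases apart in sequence and a single base apart for their probes, changed by 0.035 and 0.17, while let-7a and let-7c, a single base apart, changed by 0.035 and -0.079.

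The widest difference between the changes of 2 members was that of let-7b and let-7d, at 0.30, which differ by 4 bases. The profiles over the 8 arrays that lay nearest to each other were those of let-7a and let-7g, with a root mean square distance of 0.022 in log2 units after each was centred on its own mean. let-7c and let-7i followed at 0.028 and let-7a and let-7f at 0.030.

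The passenger arms of the family were dim. Of 14 other products of let-7 and miR-98 hairpins looked for, 13 are named on the array, 4 were tested and 0 were called, beside 41.8% of all tested miRNAs. let-7a-1-3p was 3.72, 3.60, 3.39 and 3.46 in control and 3.24, 3.44, 3.25 and 3.30 in db/db samples, a change of -0.23 that missed the threshold (adjusted p = 0.0515, limma with Benjamini-Hochberg adjustment). let-7c-2-3p has the same sequence as let-7a-1-3p, so the 2 products share this value. The probes of let-7a-1-3p differed in sign. Its brightest probe, at 5.06 in control, changed by -0.23 without overlap. The dimmer ones, at 1.53 to 2.80 in control beside a floor of 1.48, changed by -0.23, 0.26 and -0.28, with overlap.

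The other tested arms also overlapped between the groups. let-7b-3p changed by -0.18, with adjusted p = 0.225, and let-7f-1-3p by -0.0067, with adjusted p = 0.955 (limma with Benjamini-Hochberg adjustment). let-7d-3p, the partner of the called member, was 3.25, 3.19, 2.99 and 2.83 in control and 3.14, 3.11, 3.23 and 2.70 in db/db samples. Its change was -0.020 with adjusted p = 0.904 (limma with Benjamini-Hochberg adjustment), beside 0.17 for let-7d-5p from the same hairpin. The 95% interval of let-7d-3p, from -0.33 to 0.29, includes that value. From the dimmest to the brightest, its probes changed by -0.045, -0.16, -0.056 and 0.078. They lay at 1.56 to 4.01 in control, beside a floor of 1.48. The difference between the arms was not tested.

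let-7a-2-3p, let-7c-1-3p, let-7f-2-3p, let-7g-3p, let-7i-3p, miR-98-3p, let-7j and let-7k were not detected on any array, and let-7e-3p was detected on 1 db/db array. Beyond the 9 members, RefSeq lists 2 mouse miRNAs with the same seed, let-7k and miR-1961, each detected on 0 arrays. let-7j carries the family name without the seed. They are shown with the seed, where present, in capitals.
let-7k: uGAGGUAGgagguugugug
miR-1961: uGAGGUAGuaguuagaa
let-7j: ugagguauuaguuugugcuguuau

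Some let-7 hairpins lie in clusters with miRNAs of the miR-99/100 and miR-125 families, which have other seeds. Of 11 such cluster mates on the array 5 were tested, of which 2 fell and 0 rose, with a median change of -0.047. Called in either direction, 2 of 5 is close to the 41.8% of all tested miRNAs. Both calls were lower, where 17.4% of all tested miRNAs were called lower, and a list of 5 is small. miR-100-5p fell from 6.86 ± 0.10 to 6.64 ± 0.06 (SD, n = 4 each; adjusted p = 0.0189). miR-125b-5p, a miRNA that represses Lin28, fell from 10.40 ± 0.08 to 10.24 ± 0.05 (SD, n = 4 each; adjusted p = 0.0359, limma with Benjamini-Hochberg adjustment for both). Both have a locus beside let-7a-2, and let-7a changed by 0.035. miR-99a-5p changed by -0.047, miR-99b-5p by 0.017 and miR-125a-5p by -0.036, and none of these passed.

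Among 9 miRNAs known to act on Lin28 or on let-7 itself, 5 rose, 1 fell and 3 did not pass, with a median change of 0.15. The 5 were the miR-30 family, abundant in the kidney and able to repress Lin28: miR-30a-5p changed by 0.17, miR-30b-5p by 0.18, miR-30c-5p by 0.26, miR-30d-5p by 0.30 and miR-30e-5p by 0.15. miR-30d-5p went from 9.38 ± 0.01 to 9.69 ± 0.03 (SD, n = 4 each; adjusted p = 0.00042, limma with Benjamini-Hochberg adjustment). miR-125b-5p is the one that fell, and miR-125a-5p, miR-9-5p (0.15) and miR-107-3p (-0.13) did not pass. The share called in this list, 6 of 9, stands beside 41.8% of all tested miRNAs, with 24.4% called higher and 17.4% lower. The 5 called higher belong to 1 family, and whether their probes share signal was not tested. The list was drawn up with earlier results of these data known.

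The miRNAs with profiles most like that of the family were found among 260 others detected on all 8 arrays, by the root mean square distance of centred log2 profiles. The nearest to the mean of the 9 members were miR-196b-5p at 0.024, miR-15a-5p at 0.032, miR-194-5p at 0.039, miR-20b-5p at 0.039 and miR-103-3p at 0.039, where the median candidate lay at 0.14. None of the 5 was called, with changes between -0.050 and 0.078.

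Nearest to let-7d were miR-1839-5p at 0.031, miR-26b-5p at 0.032 and miR-130a-3p at 0.037, with the median candidate at 0.17. miR-1839-5p changed by 0.21 (adjusted p = 0.0066) and miR-26b-5p by 0.13 (adjusted p = 0.0203), both called higher, while miR-130a-3p changed by 0.12 and missed the threshold (adjusted p = 0.0515, limma with Benjamini-Hochberg adjustment for all). Likeness of profile over 8 arrays rests on the group difference and on the factor of each array together.

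**Figure D5:**
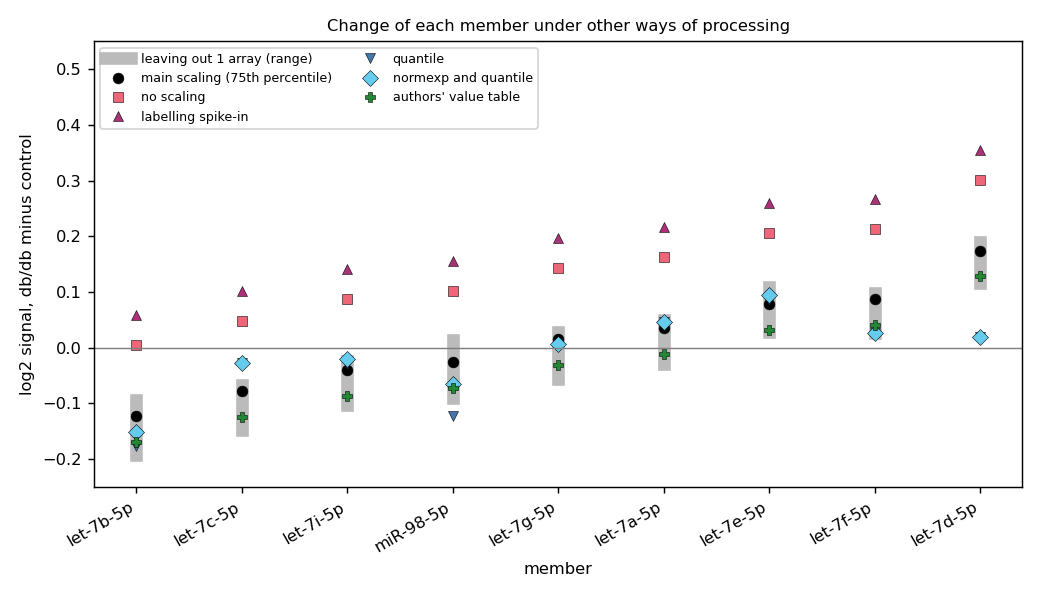
Change of each member in log2 units, db/db minus control, under other ways of processing: the reported scaling (circle), 4 other scalings or background corrections, the authors' deposited table, and the range when 1 array is left out (grey bar). let-7d-5p lies above 0 in every setting, between 0.019 and 0.36, and no scaling and spike-in scaling move all 9 members upward.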

How the data were processed

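Spot intensity values were deposited by the authors as output of Agilent Feature Extraction, version 12.0.3.1, as stated in the submitters' processing notes and the file headers. Processed signals of a probe's spots, outliers left out, were averaged, and then those of a miRNA's probes. Each array was scaled to its 75th percentile, taken over the 269 miRNAs that all arrays detected, floored at 2.80 and put on the log2 scale, which was computed here from the deposited intensity. Tested were 316 miRNAs, those that every array of one or both groups detected, by limma 3.58.1 (lmFit, eBayes, no block) in R 4.3.3, with data.table, version 1.17.8, 2-sided, with calls at a Benjamini-Hochberg adjusted p under 0.05. The number of arrays limits the precision. The limma fit was tested on simulated log2 values, and the averaging, scaling, floor and filter were not.

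A value table deposited by the authors holds a linear ratio per miRNA and array. Its log2 changes correlated at 1 with those of the gene total signal over 269 miRNAs and lay 0.17 lower, so its direction is that of the signal. Its rows and columns each carry a factor, and the choice of the array factor is not given in the sources used. Its column medians were 1.11, 1.10, 1.10 and 0.980 in controls and 0.857, 1.01, 0.994 and 0.947 in db/db, in replicate order. It was used as an alternative only.

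The family was chosen for description, and the lists drawn up, with earlier results of these data known; within the family the members were taken by name. Named are all 9 members, the other products of their hairpins and other miRNAs with their seed, the called miRNAs of the cluster and Lin28 lists with up to 3 not called, the 5 profiles nearest to the family mean and the 3 nearest to each called member. A miRNA counts as tested in a list where it passed the filter, and names are those of the array's design. Alternatives covered scaling, background correction, signal, filter, fit and left-out arrays. The replicate numbers in the titles follow the slide columns. Deviations of same-numbered arrays from their group means, over 269 miRNAs, correlated at -0.439, 0.583, 0.349 and -0.201 for numbers 1 to 4, so the numbers were not taken as pairs.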

Additional observations from a re-analysis of the deposited data

Results flagged for a closer look

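In 46 groups of 4 arrays checked for a sample far from the others, 2 had one, where chance gives about 1 in 20. let-7f-1-3p on db/db replicate 2 had a log2 signal of 4.47, while the other db/db arrays lay between 4.11 and 4.14, a gap of 0.914 of the whole range. let-7d relative to the other 8 members was 0.04 on control replicate 1, while the other control arrays lay at 0.08, a gap of 0.862 of the range. That value lies farther from the db/db arrays than those of the other controls.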

How the results depend on the processing

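Of 30 alternatives, 22 were planned and 8, each leaving out an array with scaling and filter kept, were chosen after seeing the data. The count of members called, 1 as reported, was 2 with no scaling (let-7d and let-7f higher), 2 with quantile normalization (let-7b and miR-98 lower), 1 with normexp (let-7b lower), 0 with the 75th percentile over all miRNAs, 0 with the median, 5 with the labelling spike-ins (let-7a, d, e, f and g higher), 0 in the authors' table, 3 with trend and robust fitting (let-7d and let-7f higher, let-7b lower), and 1 to 2 with an array left out (2 without control replicate 1, let-7d higher and let-7b lower, or db/db replicate 2, let-7b and let-7c lower; added ones 1 to 2). With the replicate number as a block it was 2, let-7d higher and let-7b lower (-0.12, adjusted p = 0.0352), and 81 miRNAs were higher and 63 lower overall; no other member's call changed. All 132 calls became 34 with the percentile over all miRNAs, and counts with an array left out ranged from 113 to 153. The share of higher calls, 58.3%, was 78.1% with no scaling, 83.2% with spike-ins and 46.6% with quantile normalization.

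The members' median, 0.016, was 0.14 with no scaling, 0.20 with spike-ins and -0.030 in the authors' table, and with an array left out lay between -0.056 and 0.028 (up to 0.037 with scaling and filter kept). No scaling and spike-ins moved the median of all tested miRNAs to 0.10 and 0.16, and the members lay 0.040 above it in both, as reported. Signs turned as follows. let-7a was -0.011 in the authors' table and -0.029 without db/db replicate 2 (up to 0.049 without control replicate 2, and 0.059 with scaling and filter kept), and let-7g was -0.0098 with the median, -0.030 in the authors' table and -0.056 without db/db replicate 2. With no scaling and spike-ins, let-7b was 0.0044 and 0.058, let-7c 0.048 and 0.10, let-7i 0.087 and 0.14, and miR-98 0.10 and 0.16. With an array left out, miR-98 lay between -0.090 and 0.013, the latter without control replicate 1. let-7d lost its call under quantile normalization (0.019), normexp (0.019), the median (0.15) and the percentile over all miRNAs (0.19). The call was also lost in the authors' table (0.13) and without db/db replicate 2. With the percentile over all miRNAs the standard error of let-7d was 0.25, beside 0.041 as reported. What caused these losses was not tested. Cross-hybridisation between members and the 4 arrays a group limit all values.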
